A study of Mus musculus with 12 samples.

Results

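RNA-seq libraries of mouse cells that carry the label NK (natural killer) cells were examined for the effect of a conditional knockout (cKO) of 1 gene that appeared in the same direction in spleen and in tumor. All 12 of the 12 libraries of the series entered the comparison: the 6 cKO libraries, 3 from spleen and 3 from tumor, were set against the 6 wild-type (WT) libraries, 3 from spleen and 3 from tumor, with tissue as a covariate. The cells were sorted from control and cKO mice, and the labels give neither the age or strain of the animals, nor the promoter that drives the recombinase, nor the tumor model. Whether each library is a separate animal, and whether a spleen and a tumor library share one, is not stated, so the p-values measure the spread between these samples, which may be technical. The level of the deleted gene is not reported here and could not serve as a check of the genotypes. Levels are CPM (read counts scaled to a fixed library total) with TMM composition factors, fold changes are log2 values of cKO over WT ± SE from edgeR's quasi-likelihood fit, and genes are said to be called where the Benjamini-Hochberg adjusted p, computed across the 16831 genes tested, was below 0.05.

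NK cells are innate lymphocytes that kill infected or transformed cells, and they divide in response to cytokines such as IL-15. A dividing cell first licenses and fires its replication origins, copies its DNA with the help of polymerases, clamps and checkpoint proteins, holds the copies together with cohesin, and then condenses and separates the chromosomes with condensin, topoisomerase and mitotic kinesins. Many of the genes for these steps are kept off in resting cells and are switched on in turn, the replication genes through E2F sites and many mitotic genes through a promoter element called the cell cycle genes homology region (CHR), which the DREAM and MuvB complexes bind.

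The totals were 9542329 to 13753737 counts in spleen and 15765906 to 37118494 in tumor. Defining NK markers were abundant in spleen and scarce in tumor. Ncr1, the gene of the NK receptor NKp46, ranged from 90.9 to 204 CPM in spleen but from 0.421 to 1.86 CPM in tumor. Summed over 8 NK markers the level was 979.5 to 1331 CPM in spleen, 42.4 to 158 CPM in tumor WT and 32.3 to 43.7 CPM in tumor cKO. B-cell markers summed to 2507 to 3145 CPM in spleen, and macrophage markers to 13290 to 28240 CPM in tumor WT and 1541 to 4361 CPM in tumor cKO. Fewer cells of a type and less RNA per cell cannot be told apart in such samples. Tumor WT replicates 2 and 3 and tumor cKO replicate 3 stood apart from their groups in earlier results of these data, and the counts below are also given without each of them.

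Over both tissues edgeR called 144 of the 16831 genes (0.856%), 93 higher in cKO (0.553%) and 51 lower (0.303%). Of the 144, 121 (0.719% of all genes tested) had the same sign in spleen and in tumor. Among all genes tested 51.7% had the same sign, 23% both higher and 28.7% both lower, and a call over both tissues favours agreement by its construction. The remaining 23 were called in tumor, and 22 of them had no reads in any spleen library. In 85 of the 121 (0.505% of all genes tested) the cKO libraries lay entirely above or entirely below the WT libraries in each tissue, 64 higher (0.38% of all genes tested) and 21 lower (0.125%). Over all genes tested, whether called or not, 3.47% lay apart in this way in both tissues, 1.78% higher and 1.69% lower. These 85 are called shared genes here. Their choice used the levels in both tissues, so the values given for them are a description. Just inside the threshold were Rad51ap1 and Sgk1, with adjusted p = 0.0495 and 0.0498 (edgeR), and just outside it was Slc7a5, an amino acid transporter, with 0.0503.

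The counts fell whenever a single tumor library was left out. Without tumor WT replicate 1, 2 or 3 edgeR called 10, 70 or 3 genes in place of 144, and without tumor cKO replicate 1, 2 or 3 it called 3, 3 or 13. The shared genes numbered 5, 45 and 3 in the first set and 3, 3 and 8 in the second, and 129 without spleen cKO replicate 1. Leaving out tumor WT replicates 2 and 3 and tumor cKO replicate 3 together kept only replicate 1 of tumor WT. That group then had no spread of its own, so the counts of that setting are not compared here. In the other direction, DESeq2 called 2223 genes, of which 501 were of shared direction with groups apart, and the average of the 2 tissue effects in the fit with 1 mean per group called 3420 (20.3%). Scaling to library totals with no composition factor called 200 genes, of which 77.5% were higher, against 64.6% with TMM, and moved the median log2 value of all genes in tumor from −0.117 to 0.055.

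In tumor all 85 shared genes were called on their own, where 38% of all genes were (16.4% higher and 21.6% lower). That split turned with the scaling, from 2761 higher and 3638 lower with TMM to 3734 and 2772 with no composition factor. In spleen 4 of the 85 were called on their own, where 0.0297% of all genes were, namely Tcrg-C2, Trgj2, Rps15a-ps6 and Rps15a-ps7. An unadjusted p under 0.05 in spleen was found in 79 of the 85, against 4.66% of all genes. The choice of genes with groups apart in each tissue favours small p-values there, so these shares are a description. The 64 shared genes that were higher in cKO had a median log2 value of 0.81 in spleen and 1.52 in tumor. For the 21 lower ones the medians were −0.65 and −1.44. All genes tested had medians of 0 in spleen and −0.12 in tumor. The change was larger in tumor in 75 of the 85, and the difference between tissues was itself called in 19 (22.4%), against 18.3% of all genes. Of all genes called in tumor, 53.8% had the same sign in spleen, close to the 51.7% of all genes tested. With each tissue filtered, scaled and fitted alone, 31 genes were called in spleen, 5383 in tumor and 16 in both. Only 8 of those 16 had the same direction, a share near the 51.7% of all genes tested. Clspn, Mki67, Top2a and Diras2 were among these 8. The rest, among them Apoe and Mrc1, were higher in cKO in spleen and lower in tumor.

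**Figure D1:**
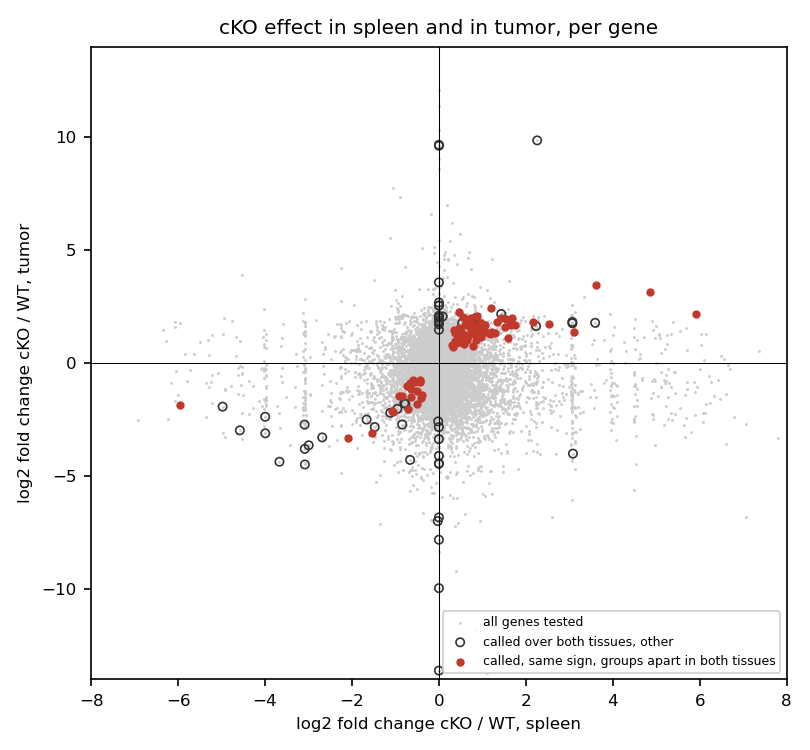
Each point is a gene, with the log2 fold change of cKO over WT in spleen on the x axis and in tumor on the y axis. Filled red points are the 85 shared genes, open circles the other called genes and small grey points all genes tested. The shared genes lie at the upper right and the lower left, and called genes on the vertical line at 0 are those without reads in spleen.

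Of the 64 shared genes higher in cKO, 49 had a promoter window in the RefSeq table (GRCm38.p6, 250 bases before to 50 after the start). The CHR element, TTTGAA on either strand, was found in 19 of these (38.8%), against 12.6% of the 10771 tested genes with a window and 18.1% of all 27025 windows. One of 4 E2F sites (TTTCCCGC, TTTGGCGC, TTTCGCGC or TTTGCCGC, either strand) was found in 7 (14.3%), against 3.9% of tested genes and 2.32% of all windows. Among the 17 windows of shared genes lower in cKO, 1 had a CHR, that of Sgk1, and 0 had an E2F site. The cyclic AMP response element TGACGTCA was in 2 of the 49 (4.08%) against 3.13% of tested genes. These are matches of letters in a window, given as a description. The bases upstream of the start of 5 shared genes are shown because they hold such matches, which are in capitals (TTTGAA or its complement TTCAAA, or the E2F letters in E2f7).
Mki67, chr7:135716380-135716629, minus strand: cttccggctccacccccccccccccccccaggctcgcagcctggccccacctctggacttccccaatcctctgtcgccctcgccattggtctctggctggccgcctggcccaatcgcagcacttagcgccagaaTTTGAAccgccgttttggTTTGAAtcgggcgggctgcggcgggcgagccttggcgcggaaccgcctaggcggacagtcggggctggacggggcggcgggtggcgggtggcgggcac
Top2a, chr11:99024190-99024439, minus strand: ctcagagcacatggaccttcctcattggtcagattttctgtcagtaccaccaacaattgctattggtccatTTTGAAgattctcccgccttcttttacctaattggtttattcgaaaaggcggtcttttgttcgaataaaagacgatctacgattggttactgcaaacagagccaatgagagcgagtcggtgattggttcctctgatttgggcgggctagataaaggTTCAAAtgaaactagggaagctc
Cdca5, chr19:6084847-6085096, plus strand: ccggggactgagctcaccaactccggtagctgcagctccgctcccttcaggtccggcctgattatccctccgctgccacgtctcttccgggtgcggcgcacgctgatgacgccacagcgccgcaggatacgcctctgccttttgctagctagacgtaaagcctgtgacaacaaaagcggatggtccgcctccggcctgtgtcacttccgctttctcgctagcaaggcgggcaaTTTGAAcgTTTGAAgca
Ncapg, chr5:45669675-45669924, plus strand: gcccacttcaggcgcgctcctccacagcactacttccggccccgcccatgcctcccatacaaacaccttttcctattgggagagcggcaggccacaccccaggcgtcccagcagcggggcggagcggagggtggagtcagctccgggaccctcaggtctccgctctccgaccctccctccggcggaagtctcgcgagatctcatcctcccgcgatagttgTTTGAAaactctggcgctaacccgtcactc
E2f7, chr10:110745189-110745438, plus strand: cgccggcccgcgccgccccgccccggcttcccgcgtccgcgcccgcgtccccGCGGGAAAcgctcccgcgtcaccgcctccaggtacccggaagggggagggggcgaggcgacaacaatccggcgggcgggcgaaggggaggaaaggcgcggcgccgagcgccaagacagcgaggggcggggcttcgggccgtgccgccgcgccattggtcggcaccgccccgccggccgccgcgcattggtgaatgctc
Mki67, Top2a and Cdca5 have 2 CHR matches each in the printed stretch and Ncapg has 1, and E2f7 has 1 E2F match.

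Several genes of DNA replication and its checkpoint were higher in cKO in both tissues. Clspn (chromosome 4, 126556935 to 126593903) encodes claspin, an adaptor of the replication checkpoint. It was at 43.2, 34.2 and 34.2 CPM in spleen WT and 52.8, 90.6 and 61.7 CPM in spleen cKO. In tumor it was at 102, 134 and 86.3 CPM in WT and 451, 390.2 and 540.5 CPM in cKO. The groups did not overlap in either tissue. Its log2 value over both tissues was 1.49 ± 0.24 (edgeR adjusted p = 0.0254), 0.88 in spleen and 2.10 in tumor, and the tumor change was the larger by 1.22 (adjusted p = 0.0157). Cdc45, a subunit of the replicative helicase, was at 13.2, 8.29 and 10.2 CPM in spleen WT, 17.5, 16.4 and 17.9 CPM in spleen cKO, 27.7, 33.3 and 25.1 CPM in tumor WT and 91.6, 72.8 and 105 CPM in tumor cKO (1.19 ± 0.19 over both, adjusted p = 0.0254 by edgeR). Chaf1a, the large subunit of the factor that places histones on new DNA, was at 42.8, 36 and 39.8 CPM in spleen WT and 55, 56 and 62.9 CPM in spleen cKO. Its tumor levels were 150.3, 138 and 126 CPM in WT and 548, 502 and 652 CPM in cKO. All 6 cKO libraries were above the WT libraries of their tissue, with log2 1.30 ± 0.24 over both.

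Of the 20 replication genes on the list, 3 were called higher and 0 lower, all 3 of them shared, while 20 had an unadjusted p under 0.05 and DESeq2 called 18. Of all genes tested 27.9% had an unadjusted p under 0.05 over both tissues, and DESeq2 called 2223 of 16831. In 18 of the 20 the sign was positive in both tissues, against 23% of all genes. The median log2 value was 0.32 in spleen and 1.56 in tumor. The lists were written with earlier results of these data known, so these counts are a description. The called members were Cdc45, Mcm3, another helicase subunit (0.87 ± 0.18), and Fen1, the flap endonuclease (0.64 ± 0.14), whose exons overlap those of Gm10143 over 78.8% of their length, so its reads could be split. Pola1, the catalytic subunit of the priming polymerase, missed the threshold at 0.0538. E2f1, a transcription factor of the E2F family, was chosen after its values were seen. It was at 9.72, 6.03 and 7 CPM in spleen WT and 12.5, 14.1 and 12.7 CPM in spleen cKO, and at 24.8, 29.1 and 21.4 CPM in tumor WT and 41.8, 37.4 and 49.8 CPM in tumor cKO. Its log2 value was 0.78 in spleen and 0.77 in tumor (difference −0.01 ± 0.27 SE, edgeR adjusted p = 1).

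Several genes of chromosome segregation were likewise higher in cKO in both tissues. Mki67, the Ki-67 protein that coats mitotic chromosomes, was at 414, 347 and 344 CPM in spleen WT and 473, 650.3 and 584 CPM in spleen cKO. In tumor the levels were 557, 716 and 447 CPM in WT and 2189, 1748 and 2420 CPM in cKO. Spleen cKO thus reached the range of tumor WT, and tumor cKO lay above every other library. The log2 value over both tissues was 1.26 ± 0.23 (edgeR adjusted p = 0.032). Top2a, the topoisomerase that untangles sister chromatids, was at 118, 96.1 and 95.8 CPM in spleen WT, 159, 172 and 172 CPM in spleen cKO, 213, 307 and 158 CPM in tumor WT and 896, 729.9 and 993 CPM in tumor cKO (1.33 ± 0.24, adjusted p = 0.0293 by edgeR). For Ncapg, a condensin subunit, the spleen levels were 3.34, 3.47 and 3.5 CPM in WT and 5.88, 9.03 and 6.83 CPM in cKO, and the tumor levels 9.32, 19.4 and 9.11 CPM and 39.6, 33.6 and 50.3 CPM. It rose by log2 1.41 ± 0.23 over both tissues. Cdca5, or sororin, which keeps sister chromatids joined, was low in spleen, at 0.152, 0.452 and 0.568 CPM in WT and 1.03, 1.2 and 1.14 CPM in cKO. In tumor it was at 3.09, 3.62 and 3.5 CPM and 9.45, 8.79 and 12.6 CPM, and its log2 value was 1.53 in spleen and 1.59 in tumor (difference 0.06 ± 0.74 SE).

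Of the 20 mitosis genes, 7 were called higher and 0 lower, 6 of them shared, and 19 had an unadjusted p under 0.05, against 27.9% of all genes (DESeq2 called 18). All 20 were positive in both tissues, against 23% of all genes. In 10 the cKO libraries lay above the WT libraries in both, against 1.78% of all genes. The medians were 0.64 in spleen and 1.58 in tumor. Members called were Mki67, Top2a, Ccnb2, Birc5, Nusap1, Bub1b, a spindle checkpoint kinase (1.01 ± 0.20), and Cdk1, the mitotic kinase (1.33 ± 0.26), whose groups overlapped in spleen. The smallest value in tumor, 0.06, was that of Aurka. Summed over the list the level was 663.8 to 796 CPM in spleen WT, 942.2 to 1215 CPM in spleen cKO, 930.6 to 1688 CPM in tumor WT and 3651 to 4920 CPM in tumor cKO. Of the 64 shared genes that were higher, 9 are on the replication or mitosis list. Every T-cell marker on the list of 13 had reads in each group, and their sum was 122.6 to 152.5 CPM in spleen WT, 148.9 to 237.7 CPM in spleen cKO, 265.4 to 344.5 CPM in tumor WT and 442 to 651.6 CPM in tumor cKO, and their part in the cell cycle result was not tested.

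**Figure D2:**
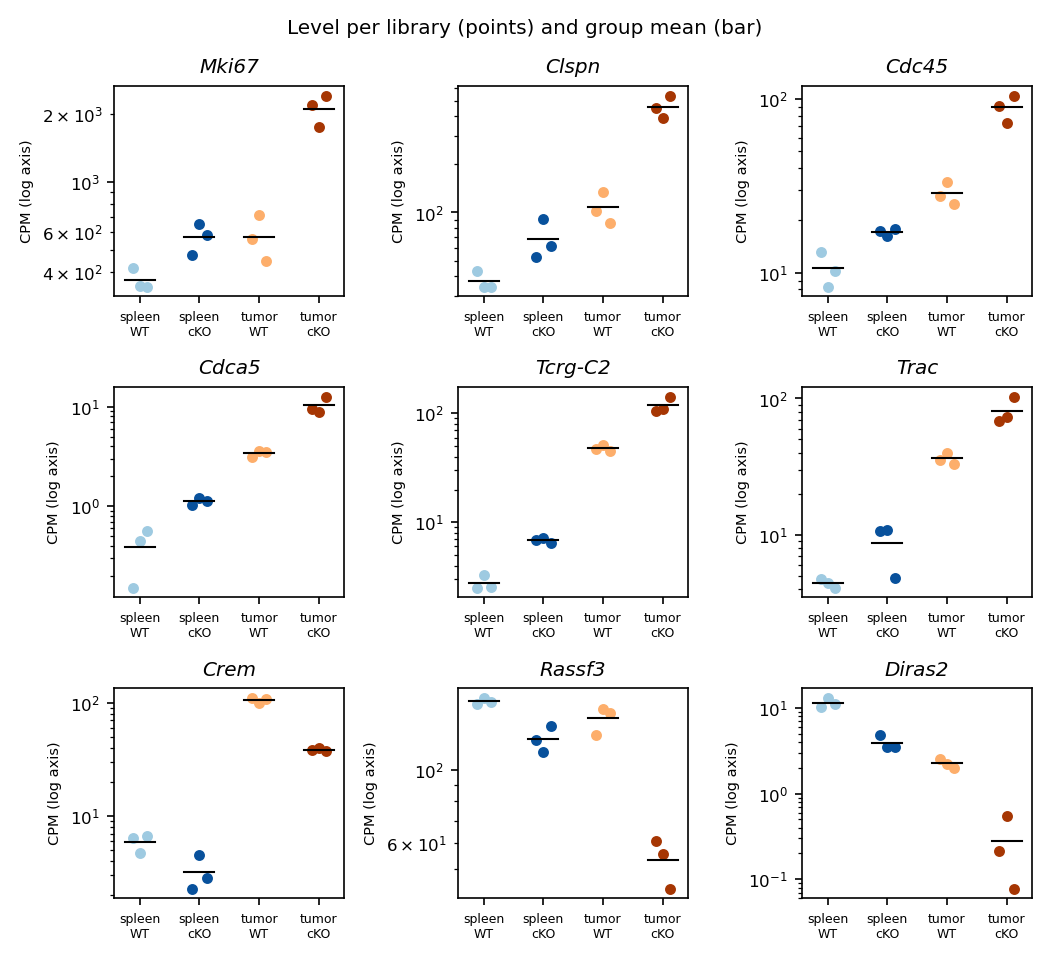
Level of 9 genes in each library, in CPM on a log axis, with the group mean as a bar; light and dark blue are spleen WT and cKO, light and dark orange tumor WT and cKO. Mki67, Clspn, Cdc45, Cdca5, Tcrg-C2 and Trac are higher in cKO in both tissues, and Crem, Rassf3 and Diras2 lower.

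Among the 12 named genes with the largest rise were further genes of division. Kif18b, a mitotic kinesin, was at 1.37, 0.905 and 1.14 CPM in spleen WT and 1.76, 7.03 and 2.92 CPM in spleen cKO, and at 5.36, 7.6 and 4.47 CPM in tumor WT and 19.1, 12 and 24.7 CPM in tumor cKO. Troap, a protein of the spindle, was at 0.608, 0.302 and 1.51 CPM, 2.2, 2.81 and 2.56 CPM, 1.8, 5.17 and 1.87 CPM and 10.5, 9.63 and 15.9 CPM in the same order. Esco2, the acetyltransferase that makes cohesin hold, had spleen levels of 0.608, 0.603 and 1.14 CPM in WT and 1.18, 1.41 and 1.28 CPM in cKO and tumor levels of 3.26, 4.83 and 2.41 CPM and 13.2, 11.6 and 17.4 CPM. In Kif18b, Troap and Esco2 the spleen groups lay close together, and the spleen value of Esco2 had an unadjusted p of 0.0895 (edgeR). In Kif18b the lowest spleen cKO library, at 1.76 CPM, was near the highest spleen WT library, at 1.37 CPM, and replicate 2 of spleen cKO, at 7.03 CPM, was far above the others. E2f7, a repressor among the E2F factors, was at 2.73, 2.41 and 0.662 CPM in spleen WT and 3.89, 5.62 and 5.41 CPM in spleen cKO, and at 4.54, 4.18 and 2.66 CPM and 13.4, 8.31 and 18.9 CPM in tumor. Over both tissues Kif18b, Troap, Esco2 and E2f7 rose by log2 1.71 ± 0.32, 1.86 ± 0.37, 1.48 ± 0.31 and 1.603 ± 0.32.

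Some genes of DNA repair were called as well. Rad51ap1, a DNA-binding protein of recombination repair, was at 9.72, 7.99 and 7.76 CPM in spleen WT and 13.7, 11 and 10.5 CPM in spleen cKO. In tumor it was at 13.3, 15.9 and 11.5 CPM in WT and 61, 57.2 and 77.2 CPM in cKO, and the change was larger there by log2 1.79 (edgeR adjusted p = 0.00179). Mnd1, known from meiotic recombination, was at 1.67, 0.452 and 0.757 CPM in spleen WT, 4.12, 2.01 and 2.99 CPM in spleen cKO, 11, 10.5 and 6.76 CPM in tumor WT and 26.1, 28.3 and 36.4 CPM in tumor cKO. Its log2 value was 1.66 in spleen and 1.68 in tumor (difference 0.02 ± 0.74 SE). Of 20 break repair genes on the list, 2 were called higher and 0 lower, where 0.553% of all genes were called higher. They were Fancd2 of the crosslink repair pathway (1.24 ± 0.26) and Chek1, the checkpoint kinase (1.24 ± 0.26). The groups of Chek1 did not lie apart in both tissues. An unadjusted p under 0.05 was found in 13 of the 20, against 27.9% of all genes, and DESeq2 called 11. In 12 the sign was positive in both tissues, against 23% of all genes. The list had a median of 0.095 in spleen and 1.41 in tumor, and Xrcc6, the Ku70 subunit of end joining, had 0.09 and 2.27.

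Some T-cell receptor genes were also of shared direction. Tcrg-C2 (chromosome 13, 19304649 to 19307551), a constant region of the gamma chain, had the smallest p of all genes over both tissues (1.31 ± 0.12, edgeR adjusted p = 0.000819). It was at 2.51, 3.32 and 2.56 CPM in spleen WT and 6.91, 7.23 and 6.47 CPM in spleen cKO, and at 47, 51.5 and 44.8 CPM in tumor WT and 105, 110.4 and 143 CPM in tumor cKO. Its log2 value was 1.29 in spleen and 1.32 in tumor, and the difference was 0.03 ± 0.25 SE. Trgj2, a joining segment of the same locus, was at 0.228, 0.302 and 0.0946 CPM in spleen WT, 1.62, 2.41 and 1.71 CPM in spleen cKO, 7.39, 9.58 and 6.22 CPM in tumor WT and 17.9, 17 and 26 CPM in tumor cKO. Its fitted rise was larger in spleen than in tumor, 3.10 against 1.39 (difference −1.71, edgeR adjusted p = 0.0372). The spleen WT levels were near the floor of 3 counts over a group, 0.0811 CPM, so the size of the spleen rise is uncertain. Of 12 gamma-delta receptor genes tested, 3 were called higher over both tissues, the third being Trgv2 (1.25 ± 0.25), and 0 lower. Of all genes 0.553% were called higher. But 7 of the 12 had the same sign in both tissues, where 51.7% of all genes did. In tumor alone 6 were called higher and 2 lower, against 16.4% and 21.6% of all genes. Trdc, the constant region of the delta chain, had log2 0.06 in spleen and −2.24 in tumor, Maf, a transcription factor, 0.29 and −1.605, and Trdv4 −0.22 and −0.92. The sum over the list was 235.2 to 267 CPM in spleen WT and 220.6 to 270.3 CPM in spleen cKO, which overlap, and 231 to 269.8 CPM in tumor WT and 419.1 to 533.5 CPM in tumor cKO. Segments of one locus share transcripts, so they are not independent.

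Trac, the constant region of the alpha chain, was at 4.71, 4.37 and 4.07 CPM in spleen WT and 10.6, 10.7 and 4.77 CPM in spleen cKO. In tumor it was at 35.5, 40.1 and 33.1 CPM in WT and 68.2, 72.5 and 103 CPM in cKO. Spleen cKO replicate 3, at 4.77 CPM, lay just above the highest spleen WT library, at 4.71 CPM. Of 13 T-cell markers 2 were called higher, Trac (1.08 ± 0.19) and Cd3d (0.85 ± 0.17), and 0 lower, while Cd3g and Cd3e had adjusted p = 0.0591 and 0.0772 (edgeR). The sign was the same in both tissues in 7 of the 13, near the 51.7% of all genes. In tumor alone 4 were called higher and 2 lower, against 16.4% and 21.6% of all genes. Cd4 and Cd8a had log2 values of 0.37 and 0.11 in spleen and −0.13 and −0.19 in tumor. Trbc1, a constant region of the beta chain, had 0.19 and −1.24, Foxp3, the factor of regulatory T cells, −0.07 and −1.14, and Cd6, a surface receptor, 0.78 and −0.91. Trat1, an adaptor of the T-cell receptor, and Il9r, a cytokine receptor, were chosen after their values were seen, and had log2 values over both tissues of 1.245 ± 0.20 and 1.02 ± 0.17. Bcl11b, a factor of T-cell commitment, missed the threshold at 0.0509, with 0.48 in spleen and 2.28 in tumor. How far a share of T cells in the sorted samples bears on these genes was not tested.

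**Figure D3:**
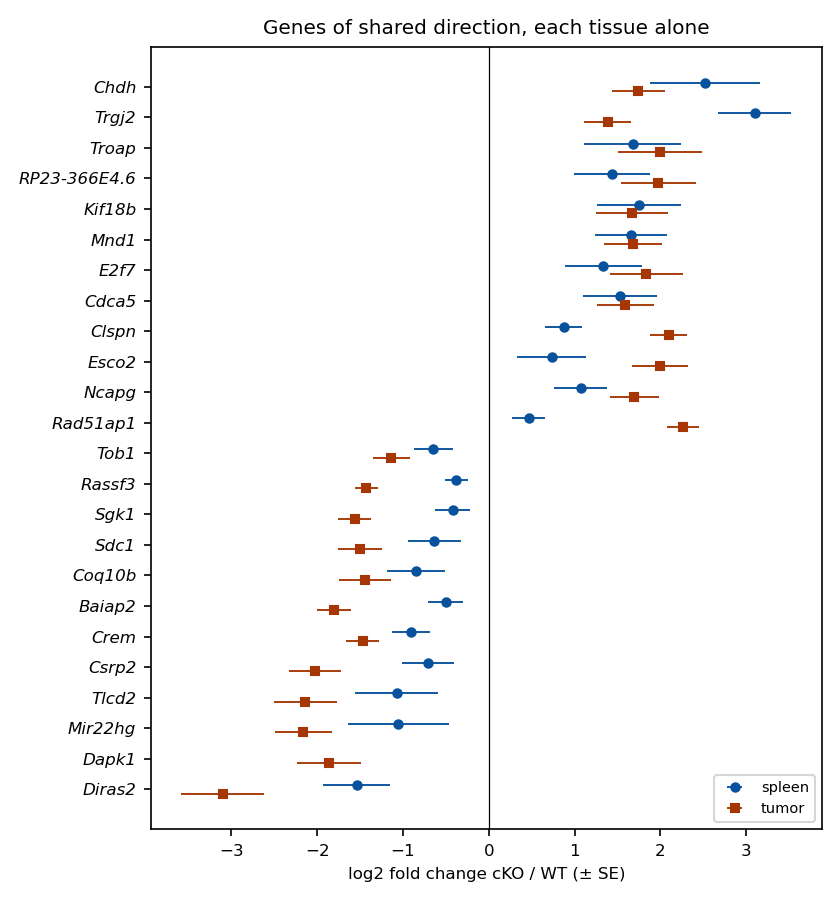
Log2 fold change of cKO over WT ± SE for the 24 genes named by the rule for shared direction, in spleen (blue circles) and in tumor (brown squares). Dapk1 has no spleen point, since the spleen cKO libraries held no reads. The spleen and tumor points are on the same side of 0 for every gene drawn in both.

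Chdh, choline dehydrogenase, had the largest rise of shared genes whose mean log2 CPM was 1 or more and whose symbol is neither a predicted model nor a pseudogene. It was at 0.456, 0.302 and 0 CPM in spleen WT and 0.882, 1.91 and 1.99 CPM in spleen cKO, and at 41.9, 70.6 and 36.6 CPM in tumor WT and 149, 148 and 204 CPM in tumor cKO (1.92 ± 0.30 over both tissues, edgeR adjusted p = 0.0254). The spleen levels were near the floor of 3 counts over a group, 0.0811 CPM in spleen WT. 1700048O20Rik rose by 1.74 ± 0.26, and a clone-named gene model that shares its exons over 52.7% of its own exon length rose by 1.71 ± 0.32, so their reads may be the same. On the list of 18 ribosomal protein genes and Rps15a copies, 2 were called, both pseudogene copies of Rps15a. Rps15a-ps6 was at 1.37, 1.06 and 0.379 CPM in spleen WT and 20.6, 35.5 and 27.6 CPM in spleen cKO, and at 0.349, 0.367 and 0 CPM in tumor WT and 2.91, 2.65 and 1.63 CPM in tumor cKO. Rps15a-ps7 rose by 3.53 ± 0.35 over both tissues. Rps15a itself was at 139, 143 and 127 CPM in spleen WT and 77.7, 35.1 and 83.9 CPM in spleen cKO, and at 156, 116 and 157 CPM in tumor WT and 136, 122 and 164 CPM in tumor cKO, and was not called (0.162). Pseudogenes and their parent share sequence, so how the reads were divided between them is uncertain.

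Among genes lower in cKO in both tissues, Diras2, a small GTPase (chromosome 13, 52504375 to 52530836), had the largest fall of those named. It was at 10.2, 13.2 and 11 CPM in spleen WT and 4.78, 3.51 and 3.49 CPM in spleen cKO. In tumor the levels were 2.56, 2.23 and 1.99 CPM in WT and 0.214, 0.542 and 0.0776 CPM in cKO. Unlike the division genes it was higher in spleen than in tumor, in WT as in cKO, and its log2 value was −2.18 ± 0.38 over both (edgeR adjusted p = 0.0288). Crem, a transcription factor that answers to cyclic AMP, was at 6.46, 4.67 and 6.72 CPM in spleen WT and 2.28, 4.52 and 2.85 CPM in spleen cKO, and at 111, 99.8 and 108 CPM in tumor WT and 37.9, 39.5 and 37.5 CPM in tumor cKO. Its log2 value was −1.23 ± 0.17 with adjusted p = 0.0214 (edgeR). Rassf3, of a family of RAS-association proteins, was at 159, 166 and 160.3 CPM in spleen WT and 123, 113 and 136 CPM in spleen cKO. Its tumor levels were 128, 153 and 149 CPM in WT and 60.5, 55.6 and 43.4 CPM in cKO, a fall larger in tumor by 1.05 (difference −1.05, edgeR adjusted p = 0.00381).

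Tob1, a protein that restrains proliferation, was at 11.9, 12.6 and 18 CPM in spleen WT, 7.49, 8.53 and 11 CPM in spleen cKO, 35.9, 47.3 and 40.7 CPM in tumor WT and 15.1, 19.4 and 21.8 CPM in tumor cKO (−0.90 ± 0.17). Sgk1, a kinase of the AGC family, was at 13.1, 14.6 and 13.7 CPM in spleen WT and 7.93, 11.2 and 11.7 CPM in spleen cKO, and at 308, 265 and 348 CPM and 126, 110.2 and 75.2 CPM in tumor (−1.02 ± 0.22). In both genes the groups lay apart in each tissue. Sdc1, syndecan-1, was at 3.8, 6.03 and 4.73 CPM and 3.16, 3.01 and 3.2 CPM in spleen and at 101, 70.7 and 89.7 CPM and 42.7, 31.2 and 18.4 CPM in tumor (−1.12 ± 0.23). Baiap2, an adaptor of the actin cytoskeleton, was at 15.4, 16.7 and 17 CPM and 14.6, 10.6 and 9.39 CPM in spleen and 116, 87.3 and 142 CPM and 31.3, 37.8 and 29.6 CPM in tumor. Its fall was larger in tumor (difference −1.30, edgeR adjusted p = 0.00806). Csrp2, a LIM domain protein, and Coq10b, of coenzyme Q function, had log2 values of −1.37 ± 0.29 and −1.17 ± 0.24. Mir22hg, the host gene of a microRNA, and Tlcd2 share 206 exon bases and had −1.85 ± 0.32 and −1.73 ± 0.32. Dapk1, a kinase of cell death, had 16 counts in spleen WT and none in spleen cKO, at least 5.43-fold lower over a floor of 3 counts per group, and fell in tumor from 46.9, 54.2 and 63.1 CPM to 21.1, 15.7 and 8.41 CPM. Dusp3, a phosphatase chosen after its values were seen, had −0.90 ± 0.17.

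Of 22 NK identity genes, 14 were negative in both tissues, against 28.7% of all genes, with a median of −0.10 in spleen and −1.57 in tumor. Of the 22, 12 lower and 1 higher had an unadjusted p under 0.05, against 27.9% of all genes, and DESeq2 called 7 lower and 1 higher. EdgeR called 1, lower, where 0.303% of all genes were. That gene was Nfil3, a factor needed for NK cell development, at 8.36, 18.4 and 17.6 CPM in spleen WT and 9.62, 9.23 and 7.11 CPM in spleen cKO, and at 256, 347 and 245 CPM in tumor WT and 83.1, 95.3 and 63.5 CPM in tumor cKO. Spleen WT replicate 1 lay within the spleen cKO range, so the groups overlapped there. Ncr1 had log2 −0.71 ± 0.24 and Klra1, an inhibitory receptor of the Ly49 family, 0.97 ± 0.24, neither called over both. Among 26 genes from the IL-15 receptor to JAK and STAT5, edgeR called 0 over both tissues, 13 had an unadjusted p under 0.05, against 27.9% of all genes, and DESeq2 called 5. Il2rb, the shared beta chain, was at 198, 182 and 242 CPM in spleen WT and 217, 212 and 183 CPM in spleen cKO, and at 106, 28 and 84.7 CPM in tumor WT and 22.1, 32.3 and 27.1 CPM in tumor cKO (adjusted p = 0.167, edgeR). Il2rg, Jak1 and Cblb had 0.03, −0.05 and −0.07 in spleen and −0.98, −0.92 and −1.88 in tumor, and Ccnd2, a cyclin, 0.13 and 1.06.

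Of 19 cytotoxic granule genes 0 were called over both tissues by edgeR, 6 had an unadjusted p under 0.05, a share near the 27.9% of all genes, and DESeq2 called 4. Gzmb, granzyme B, was at 87.4, 69.7 and 82.5 CPM in spleen WT and 113, 168 and 102 CPM in spleen cKO, and at 105, 23.7 and 76.4 CPM in tumor WT and 23.3, 31.9 and 18 CPM in tumor cKO, so its direction differed. Fasl, the death ligand, had −1.22 ± 0.33. Among 14 inhibitory receptors edgeR called 0, with 7 at an unadjusted p under 0.05 (27.9% of all genes) and 4 by DESeq2. Pdcd1, which encodes PD-1, was at 59.1, 52.6 and 56.1 CPM in tumor WT and 132, 151 and 187 CPM in tumor cKO, and at most 1.89 CPM in spleen, and had log2 1.21 ± 0.52 over both tissues (adjusted p = 0.157, edgeR). Ctla4, another checkpoint receptor, had −1.68 ± 0.45. Growth genes of the mTORC1 and MYC programs were positive in both tissues in 13 of 20, against 23% of all genes. EdgeR called 0 of them, 13 had an unadjusted p under 0.05, again against 27.9% of all genes, and DESeq2 called 10.

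Of 32 interferon-stimulated genes, 9 were positive in both tissues, near the 23% of all genes. EdgeR called 0, 3 had an unadjusted p under 0.05, fewer than the 27.9% of all genes, and DESeq2 called 2. The list had a median of 0.47 in spleen and −0.19 in tumor, the latter −0.02 with no composition factor. Mx1, an antiviral GTPase, was at 36.8, 28.6 and 26.6 CPM in spleen WT and 42.8, 51.3 and 60.7 CPM in spleen cKO, and at 80.9, 39.5 and 47.3 CPM in tumor WT and 101, 74.8 and 94.2 CPM in tumor cKO, with adjusted p = 0.0664 (edgeR) over both. Rsad2, another antiviral gene, had 2.0 in spleen and 0.08 in tumor, and Cmpk2, its neighbour, 0.70 and 0.34. Trim12a and Trim34a, of a TRIM cluster, had −1.29 ± 0.32 and −0.67 ± 0.22, and neither was called. EdgeR called 0 of 12 T-lineage genes (8 with an unadjusted p under 0.05, 4 by DESeq2), 0 of 17 MHC class I genes (6 and 4) and 0 of 20 oxidative phosphorylation genes (8 and 3), where 27.9% of all genes had such a p. H2-Q2, from that class I list, had −0.09 in spleen and 3.34 in tumor.

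**Figure D4:**
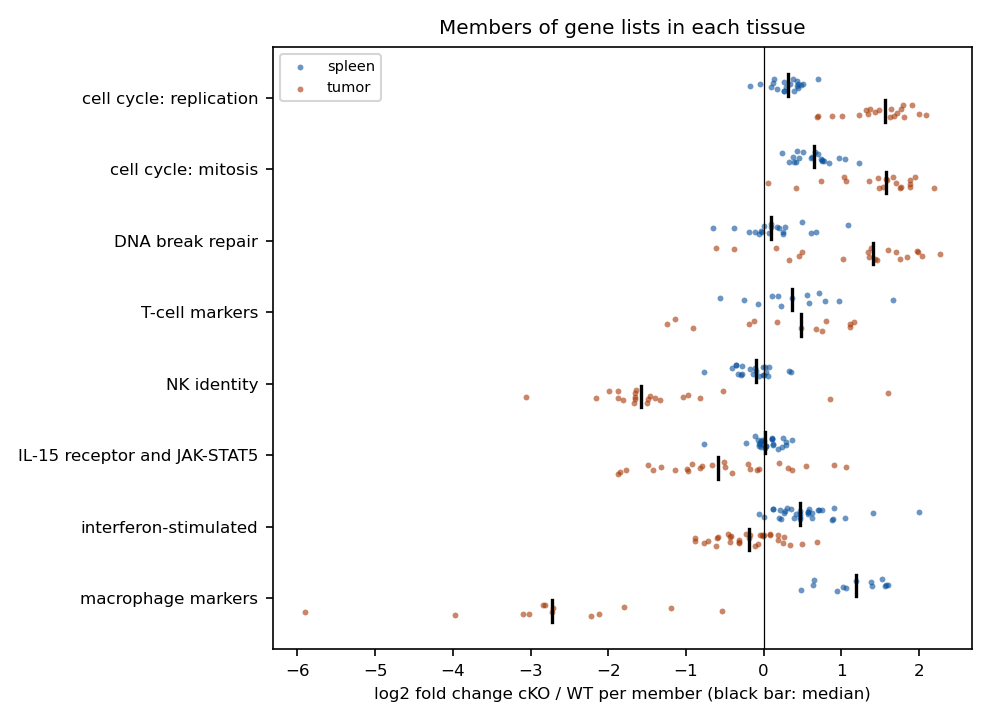
Log2 fold change of cKO over WT for each member of 8 gene lists (points), in spleen (blue) and in tumor (brown), with the median of each list as a black bar. The 2 cell cycle lists have medians above 0 in both tissues, and the macrophage markers have 1.19 in spleen and −2.72 in tumor.

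Macrophage markers differed in sign between the tissues. Of 13, 0 had the same sign in spleen and tumor, against 51.7% of all genes. EdgeR and DESeq2 each called 0 over both, and 0 had an unadjusted p under 0.05, against 27.9% of all genes. With Vsig4, which had no reads in spleen WT, the 14 markers of the list summed to 329.8 to 411.7 CPM in spleen WT and 577.8 to 782.1 CPM in spleen cKO, and in tumor to 13290 to 28240 CPM in WT and 1541 to 4361 CPM in cKO. Cd163, a scavenger receptor of macrophages, had 1.06 in spleen and −5.91 in tumor, and Adgre1, the F4/80 antigen, 0.48 and −2.72. Apoe had 0.64 and −2.84. The part of these markers in the shared genes was not tested. Among called genes without the same sign were Rhox5, a homeobox gene, at 314, 282 and 303 CPM in tumor WT and 908, 950 and 1264 CPM in tumor cKO, and Retnla, a resistin-like protein of activated macrophages, at 98.7, 414 and 91.9 CPM and 0.684, 1.56 and 0.543 CPM. Neither had reads in spleen, nor did Ccl8, a chemokine, or Car4, a carbonic anhydrase. Mgl2, a lectin, had 2 counts in spleen cKO. For such genes the call over both tissues is a tumor result.

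**Figure D5:**
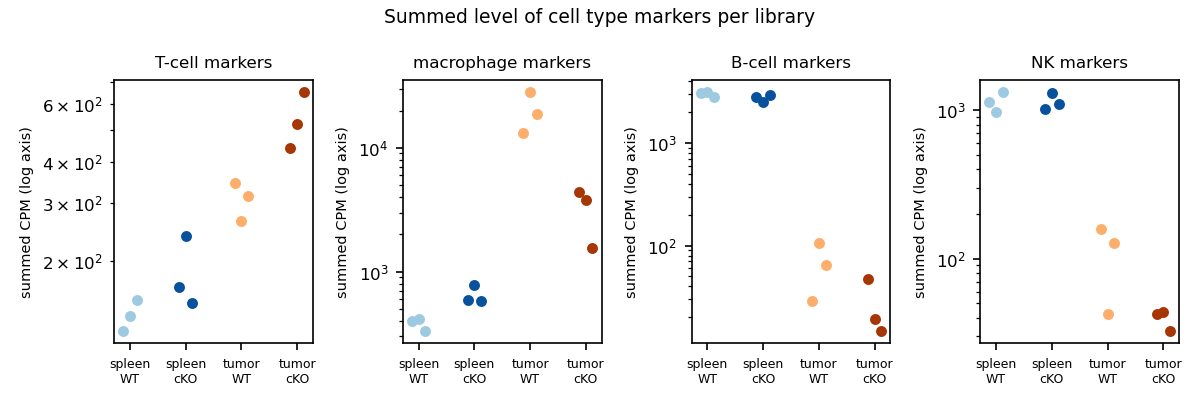
Summed level of the markers of 4 cell types in each library, in CPM on a log axis. T-cell markers are higher in cKO in tumor and, in part, in spleen, macrophage markers are higher in cKO in spleen and lower in tumor, and NK and B-cell markers are far lower in tumor than in spleen.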

How the data were processed

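RNA of 12 samples labelled as NK cells was sequenced on an Illumina NovaSeq, per the labels' protocols. The authors mapped reads with TopHat2 2.0.6 to mm10 (GRCm38), per the submitters' processing notes. For the counting program and strand setting, nothing is given in the sources used here. Raw counts of whole reads per gene were deposited for 33100 rows. The authors' RPKM values, deposited separately, are the same reads scaled by length and library total. Between 68.8% and 73.3% of counts from 1 to 49 were even, as when both mates are counted, so counting noise is larger than the counts imply. The row of the knocked-out gene is not reported here.

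Genes were filtered with filterByExpr (16831 kept), scaled with TMM and fitted in R 4.3.3 with edgeR 4.0.16 (glmQLFit, glmQLFTest, two-sided) with tissue and genotype as terms (9 residual degrees of freedom), and with 1 mean per group (8) for each tissue and their difference. DESeq2 1.42.0 and limma 3.58.1 served as alternatives. The fit with tissue and genotype as terms was run on simulated data whose changed genes had the same log2 change in both tissues. It was therefore not checked for effects that differ between tissues. Genes named were the 12 largest rises and 12 largest falls among called genes of the same sign whose groups did not overlap in either tissue, at a mean log2 CPM of 1 or more and no predicted or pseudogene symbol. The rule added up to 4 left out for their symbol, those called in spleen, the 4 of smallest p in spleen among genes called in tumor, up to 4 of each of the gene lists by p, fixed receptor and effector genes, and 5 called genes of differing sign. Not every gene it names is printed. Members and lists were chosen with earlier results of these data known. Motifs were searched on both strands of RefSeq promoter windows. Floors cover counting error only, while the SE values come from the quasi-likelihood fit and include the spread between libraries.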

Additional observations from a re-analysis of the deposited data

Results flagged for a closer look

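Alternatives were computed for 87 genes. In 31 the log2 effect of cKO in tumor minus that in spleen had an edgeR adjusted p under 0.05 over all genes. In all genes tested the share was 18.3%, but the 87 were picked in part by effect size or p in these data. Among cell cycle and repair genes the difference was 1.257 for Mki67, 1.25 for Top2a, 1.086 for Bub1b, 0.941 for Cdc45, 0.97 for Mcm3, 1.25 for Pola1, 1.221 for Clspn, 1.487 for Chaf1a and 1.794 for Rad51ap1, each with a positive effect in both tissues and the larger one in tumor. Among genes lower in both tissues it was −1.304 for Baiap2, −1.315 for Csrp2, −1.05 for Rassf3 and −1.142 for Sgk1, again larger in tumor.

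The fitted rise of Trgj2 was larger in spleen than in tumor (−1.71), from spleen WT levels near the floor, and that of Bcl11b was larger in tumor (1.804). For Trbv15, a T-cell receptor segment, the fitted difference was −5.24, but the spleen WT libraries held no reads and spleen cKO 17 counts, at least 5.57-fold higher, so the fitted value is no measure of size. The uncharacterised gene 9130208D14Rik had −3.13, with 2.94 (2.935) in spleen and −0.20 (−0.195) in tumor. Rps15a-ps5, a pseudogene copy of Rps15a, had −5.149.

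The difference was −6.967 for Cd163, −3.2 for Adgre1 and −3.476 for Apoe, all macrophage markers. Receptor and effector genes had −1.017 for Il2rg, −0.87 for Jak1, −1.81 for Cblb, 0.936 for Ccnd2, −2.159 for Gzmb and 1.277 for Klra1. For H2-Q2, a class I gene, it was 3.438, for Pecam1, an adhesion molecule, −1.257, for Cycs, cytochrome c, 0.524, and for Rsad2 −1.916.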

How the results depend on the processing

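Counts of genes called over both tissues, of the same sign, and of shared genes were 144, 121 and 85. They were 522, 463 and 193 with no filter on low counts, 2223, 2033 and 501 by DESeq2, and 3420, 2512 and 506 by the average of the spleen and tumor effects in the fit with 1 mean per group, which does not count the difference between tissues as residual spread. Limma-trend on log2(RPKM + 1) gave 9, 9 and 9, and with a pseudocount of 0.1 it gave 25, 25 and 25. Limma-voom without a block, added after seeing the data, gave 2858, 2117 and 459. Without tumor WT replicates 2 and 3 and tumor cKO replicate 3, a single tumor WT library was left, so the counts of that setting are not compared. An unadjusted p under 0.05 in each tissue with the same sign, also added after seeing the data, held for 207 genes. In spleen alone the 5 calls became 230 with no filter, 46 by DESeq2, 31 with the spleen libraries fitted alone and 35 without the 3 tumor libraries, and in tumor the 6399 became 3964 without those. Leaving out each library in turn gave 3 to 202 calls over both tissues, 3 to 169 of the same sign, 3 to 129 shared, 0 to 8 in spleen (784 genes had an unadjusted p under 0.05 with all libraries), 4410 to 6721 in tumor and 2140 to 4059 for the difference. The counts in tumor and of the difference stayed within 1.5 times with no filter, no composition factor or a replicate block, and by DESeq2. They did so without each library in turn as well, and were not counted under the limma settings. The cause of these changes was not tested.

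The replicate block gave 9, 6 and 4 genes over both tissues and 2 in spleen. Pairing spleen and tumor libraries of the same genotype and number in limma-voom gave 4434, 3120 and 531, with a consensus correlation of −0.195. Deviations of same-numbered libraries correlated above 0.1 in 1 of 18 pairs (−0.088 to 0.111), so the number was not taken as a pairing, although 7 of 12 libraries had their best match in the other tissue at their own number. Under 23 alternatives 3 of the 54 called genes followed stayed called in each, Tcrg-C2, Rps15a-ps6 and Rps15a-ps7, and the others in 8 to 17. Of the 85 shared genes the number still called ranged from 3 to 85. All 85 kept their direction and an unadjusted p under 0.05 under each setting in which they were refitted over both tissues, which the choice of genes with groups apart favours. Depth limits the low spleen levels, where 3 counts over a group are about 0.08 CPM (0.0811 in WT, 0.0797 in cKO).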
